A study of Mus musculus with 6 samples.

Results

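Genes of sterol and fatty acid synthesis, of their SREBP and INSIG regulators and of the LXR receptors and targets were followed in primary mouse microglial cultures kept at low oxygen. The list held 36 genes. A gene was counted when a row of the array table carried its symbol and no other, and the brightest such row over the 6 arrays was used, which gave 32 genes out of 30176 genes measured this way. Scd2 shared its row with Mir5114 and Srebf1 shared its row with Mir6922, and no row was listed for Soat1 or Nr1h2, so these 4 genes had no value of their own. The cultures were made from CD1 pups at postnatal day 0, with 5 pups pooled for each. Cultures 3, 4 and 6 each gave 1 array after 6 h at 21% oxygen (normoxia) and 1 array after 6 h at 1% oxygen (hypoxia), so each group had 3 arrays and each culture served as its own control. No genotype, transgene or drug is named in the labels, and both groups shared strain, age and culture method. The values were log2 intensities normalized by RMA, a method that scales all arrays to a common distribution, so a difference of 1 is a doubling of the signal.

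Cholesterol is built from acetyl-CoA through mevalonate, squalene and lanosterol, and fatty acids are built from acetyl-CoA through malonyl-CoA, then elongated and desaturated. Molecular oxygen is a substrate of several of these enzymes, among them squalene monooxygenase, lanosterol demethylase, sterol desaturase and the stearoyl-CoA desaturases. When membrane sterol is low, SCAP carries the SREBP transcription factors from the endoplasmic reticulum to the Golgi for cleavage, and INSIG proteins hold SCAP back when sterol is high. Oxysterols activate LXR, which raises transcription of sterol exporters such as Abca1 and Abcg1, a route by which microglia dispose of lipid taken up from myelin and dying cells.

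The labels were first checked on the arrays. Egln3, an oxygen-regulated prolyl hydroxylase that is a standard marker of low oxygen, measured 7.43, 8.12 and 7.53 in normoxia and 10.79, 11.45 and 10.75 in hypoxia for cultures 3, 4 and 6, and rose by 3.30 ± 0.07 (SE, n = 3 cultures, limma adjusted p = 4.36e-05). Of 10 listed microglia markers, 9 had a row, their mean lay between 11.28 and 11.40 in every array and none passed the test in either direction. Fibroblast and pericyte markers had the widest spread between cultures among the marker lists. Their mean over 8 genes was 8.93, 7.19 and 7.46 in normoxia and 9.28, 7.94 and 7.89 in hypoxia, highest in culture 3 in both conditions, and all 8 had a difference above 0 with a median of 0.58. Col1a1 and Col3a1 passed the test when it was blocked on culture, and 0 of the 8 did when it was not. The endothelial and astrocyte means were also highest in culture 3 in both conditions. In normoxia they were 6.67, 6.24 and 6.51 for endothelial cells and 6.11, 5.95 and 5.78 for astrocytes. The microglia mean was narrowly highest in culture 3 as well, and the oligodendrocyte lineage and neuron means were not. In arrays of a whole culture, fewer cells of a type and less RNA per cell cannot be told apart.

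Of the 32 genes, Scd1 alone passed the test, and it rose in hypoxia. The test was limma's, with the culture as a block and Benjamini-Hochberg adjustment over all 30176 genes at 0.05. It called 1 gene higher, against a background of 0.421% of all genes, and 0 lower, against 0.116%. Without the block 0 of the 32 were called in either direction, against 0.209% higher and 0.0166% lower. Unadjusted p-values below 0.05 in the blocked fit belonged to Scd1, Acly, Fads2 and Insig2 on the higher side (4 genes, where 7.68% of all genes did so) and to Idi1 on the lower side (1 gene, where 9.26% did). The median difference over the 32 genes was 0.04, beside 0.03 over all genes. Of the 32, 20 lay above 0 (62.5%, beside 59.7% of all genes) and 12 below. In all 3 cultures 9 genes were higher in hypoxia, where 24.8% of all genes were, and 8 were lower, where 17.5% were. The 3 hypoxia values lay wholly above the 3 normoxia values for 4 genes (Lss, Acly, Elovl6 and Insig2; 8.24% of all genes) and wholly below them for 0 genes (7.58% of all genes). None of these counts was tested against its background.

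**Figure D1:**
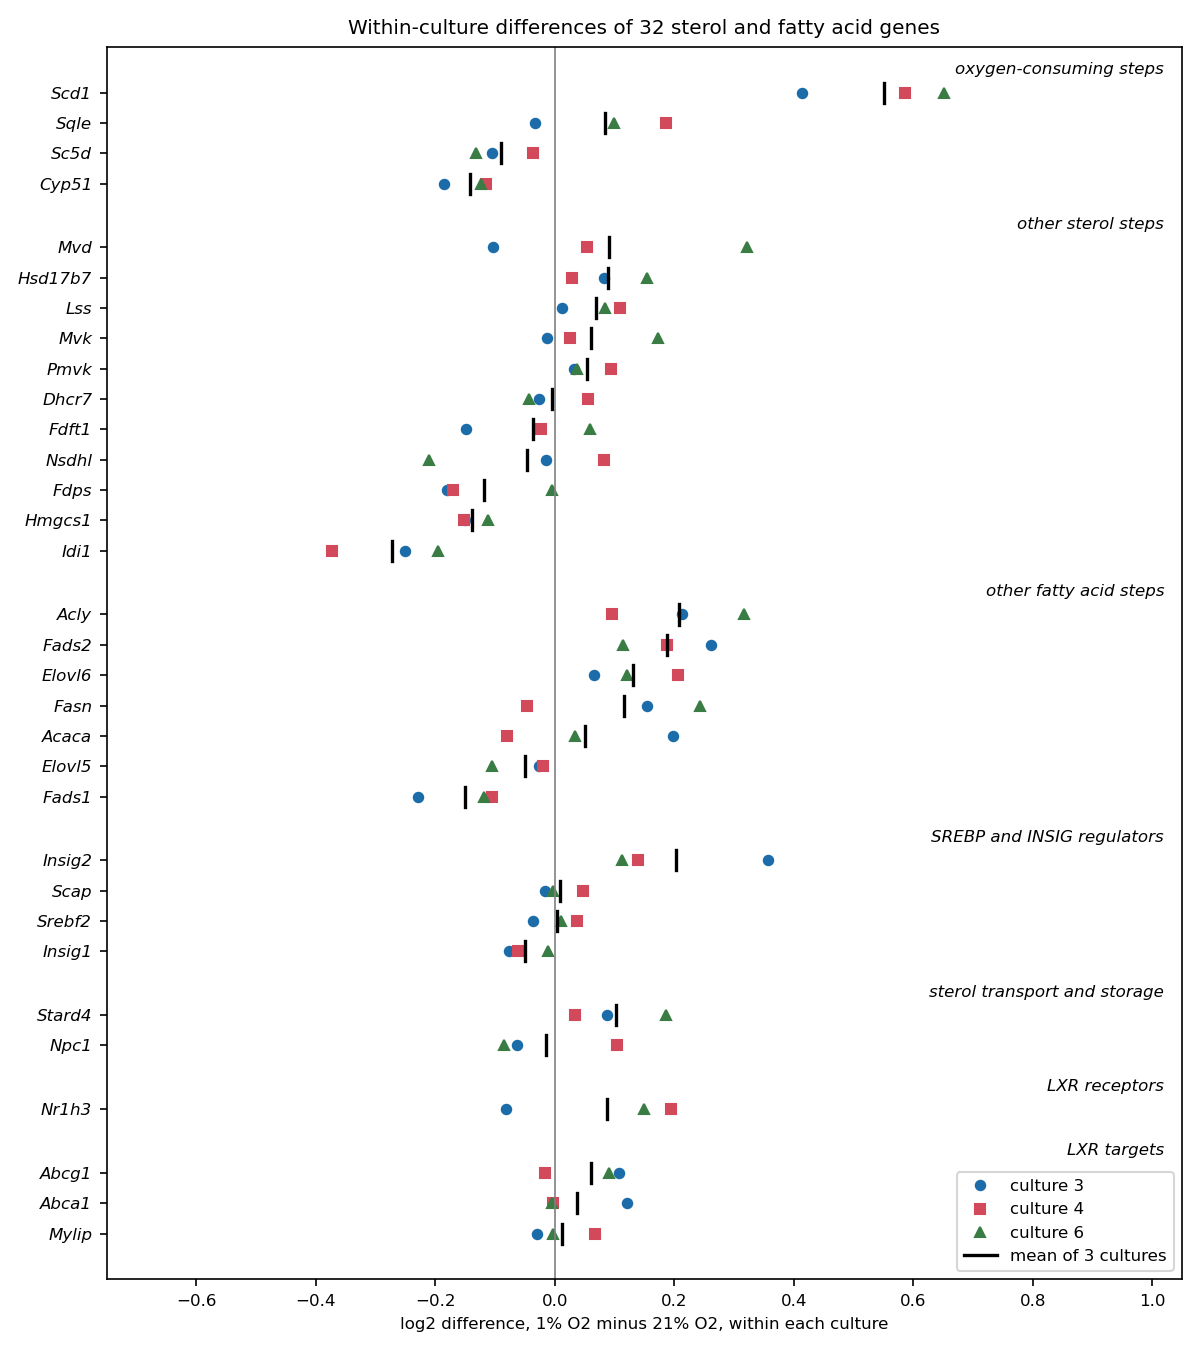
Log2 difference between the 1% and 21% oxygen arrays of each culture (horizontal axis) for the 32 genes with a value, grouped by role. Symbols mark cultures and the bar marks the mean of the 3 cultures. Scd1 lies between 0.41 and 0.65 in the 3 cultures, while the means of the other 31 genes lie between -0.27 and 0.21.

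The oxygen-consuming steps went both ways. Of the 5 listed enzymes 4 had a value, 2 above 0 and 2 below, with a median difference of 0.00, and the group as such was not tested. Scd1, which places the double bond in stearate and palmitate, measured 7.30, 6.27 and 6.35 in normoxia and 7.71, 6.86 and 7.0 in hypoxia in cultures 3, 4 and 6. It was higher in hypoxia within every culture, by 0.41, 0.59 and 0.65, although the normoxia array of culture 3 was above the hypoxia arrays of cultures 4 and 6. The mean difference was 0.55 ± 0.07 (SE, n = 3 cultures), or 1.47-fold with a 95% interval of 1.30 to 1.65, with an adjusted p of 0.0457 in limma. The adjusted p was 0.566 without the block, where the spread between cultures enters the error. Over 12 other settings the adjusted p ran from 0.0235 to 0.566 and the call was kept in 2. Leaving out culture 3, 4 or 6 gave an adjusted p of 0.180, 0.0534 or 0.0789. A dimmer row of Scd1 gave 0.10, 0.38 and 0.01 in the 3 cultures, a mean of 0.17 with an adjusted p of 0.555 over every row of the table.

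Sqle, the squalene monooxygenase and a rate-limiting oxygen-dependent step of sterol synthesis, measured 6.89, 6.61 and 6.43 in normoxia and 6.86, 6.80 and 6.53 in hypoxia. The groups overlapped, and the difference of 0.08 had a 95% interval from -0.09 to 0.25. Cyp51, which removes a methyl group from lanosterol, measured 7.81, 7.47 and 7.35 in normoxia and 7.62, 7.36 and 7.23 in hypoxia. It was lower in each culture, with a mean difference of -0.14 (95% interval -0.29 to 0.01, adjusted p = 0.317 in limma). Sc5d, the sterol desaturase late in the pathway, measured 8.38, 8.25 and 8.04 in normoxia and 8.27, 8.21 and 7.91 in hypoxia, a mean difference of -0.09 (95% interval -0.24 to 0.06). Cyp51 and Sc5d were thus on the lower side in all cultures, and neither passed the test.

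The other sterol steps had a median difference of 0.00 over 11 genes, and none passed the test. Of these, 5 lay above 0 (45.5%, beside 59.7% of all genes) and 6 below. Idi1, the isopentenyl diphosphate isomerase, had the lowest difference of the 32 genes. It measured 7.03, 6.76 and 6.53 in normoxia and 6.78, 6.39 and 6.34 in hypoxia, lower in every culture, with a mean difference of -0.27 ± 0.07 (SE, n = 3 cultures, limma adjusted p = 0.149). Hmgcs1, the synthase that makes HMG-CoA and a classic SREBP target, measured 9.11, 8.92 and 8.83 in normoxia and 8.96, 8.77 and 8.72 in hypoxia. Its within-culture differences of -0.15, -0.15 and -0.11 were nearly equal, and their mean of -0.14 had an adjusted p of 0.321 in limma. Fdps, which makes farnesyl diphosphate, gave -0.18, -0.17 and -0.01. The other steps went both ways. Mvk and Pmvk, the kinases of mevalonate and phosphomevalonate, gave mean differences of 0.06 and 0.05, and Mvd, the decarboxylase that follows them, gave 0.09 with cultures spread from -0.10 to 0.32. Fdft1, the squalene synthase, gave -0.04, Lss, the lanosterol synthase, 0.07, Nsdhl and Hsd17b7, which act on sterol demethylation, -0.05 and 0.09, and Dhcr7, the last reductase of cholesterol synthesis, 0.00.

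The other fatty acid steps had a median difference of 0.12 over 7 genes, with 5 above 0 (71.4%, beside 59.7% of all genes), and none passed the test. The median was 0.09 after a further quantile normalization or cyclic loess of all 30176 genes. Acly, which makes cytosolic acetyl-CoA from citrate, measured 9.68, 9.77 and 9.67 in normoxia and 9.89, 9.87 and 9.98 in hypoxia, so that the groups did not overlap. Its mean difference was 0.21 ± 0.07 (SE, n = 3 cultures, limma adjusted p = 0.228). Acaca, the acetyl-CoA carboxylase, gave 0.20, -0.08 and 0.03. Fasn, the fatty acid synthase, gave 0.15, -0.05 and 0.24, so culture 4 went the other way in both. The elongases differed in sign, with Elovl6 at 0.13 and Elovl5 at -0.05.

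The paired desaturases of polyunsaturated fatty acids, Fads1 and Fads2, also use oxygen and lie close together on chromosome 19. Fads2 measured 7.12, 6.62 and 6.69 in normoxia and 7.38, 6.81 and 6.81 in hypoxia, higher in every culture, with a mean difference of 0.19 and an adjusted p of 0.238 in limma. Fads1 measured 9.45, 9.86 and 9.42 in normoxia and 9.22, 9.75 and 9.31 in hypoxia, lower in every culture, with a mean of -0.15 and an adjusted p of 0.311. The difference of Fads1 minus that of Fads2 was -0.49, -0.29 and -0.23 in cultures 3, 4 and 6. An exact sign-flip test over 3 cultures cannot go below a two-sided p of 0.25, so this contrast could not pass 0.05, and it was 1 of 4 gene pairs compared. A second, dimmer Fads2 row gave -0.29, 0.39 and 0.52, without a common sign. Counting both genes among the oxygen-consuming steps left the median of that group at 0.00.

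**Figure D2:**
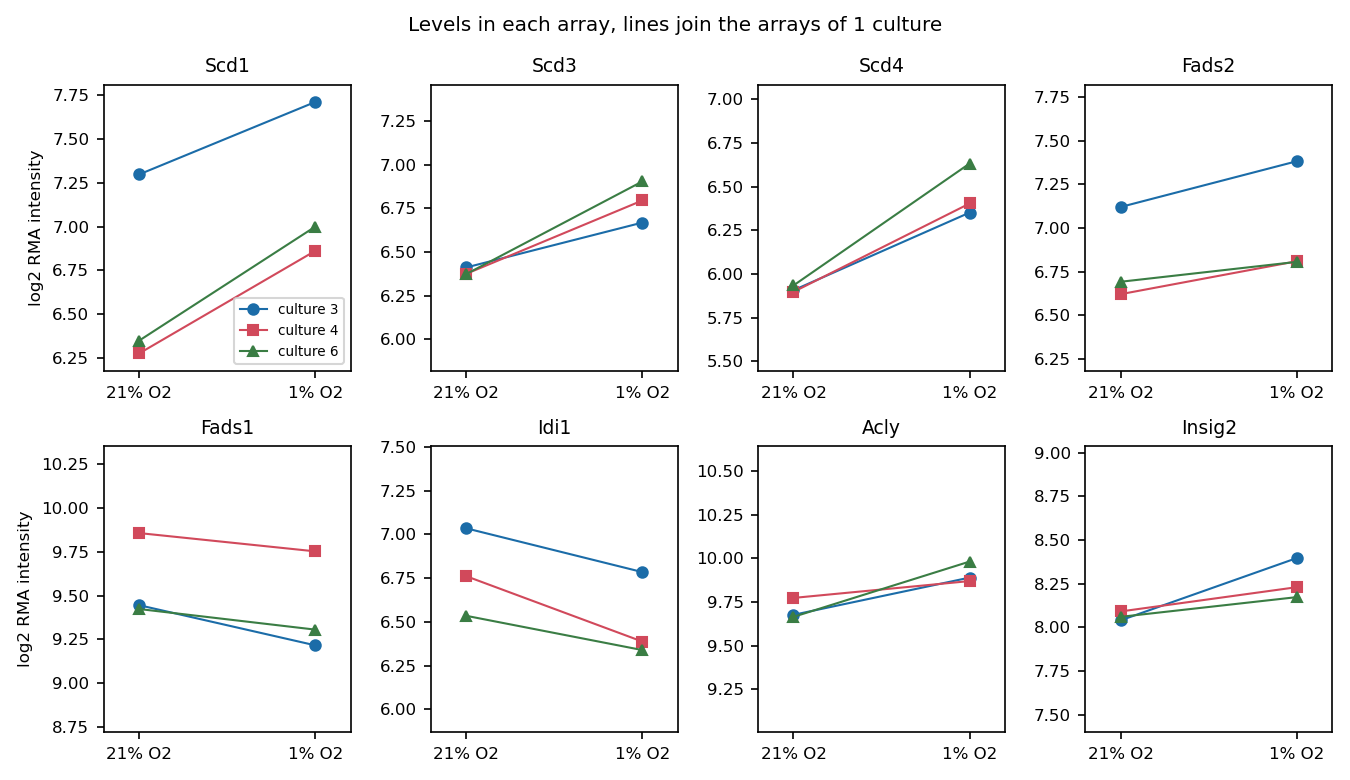
Log2 RMA intensity of 8 genes in each array, at 21% and 1% oxygen, with a line for each culture and the same axis span in every panel. Scd1, Scd3, Scd4, Fads2, Acly and Insig2 slope upward in all 3 cultures and Fads1 and Idi1 downward, and culture 3 lies above the other cultures in both conditions for Scd1, Fads2 and Idi1.

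Among the regulators, the sterol sensor Scap and the transcription factor gene Srebf2 stayed within 0.05 of 0 in every culture, with mean differences of 0.01 and 0.00 and 95% intervals no wider than -0.15 to 0.16. The INSIG genes pointed in opposite directions. Insig2, which encodes the anchor protein whose transcription is known to respond to hypoxia-inducible factor, measured 8.04, 8.09 and 8.06 in normoxia and 8.40, 8.23 and 8.17 in hypoxia. All hypoxia arrays were above all normoxia arrays, and the mean difference was 0.20 ± 0.07 (SE, n = 3 cultures, limma adjusted p = 0.254). Insig1, itself an SREBP target, measured 8.87, 9.01 and 8.71 in normoxia and 8.80, 8.94 and 8.70 in hypoxia, a mean difference of -0.05 (95% interval -0.20 to 0.10). The difference of Insig2 minus that of Insig1 was 0.43, 0.20 and 0.12 in the 3 cultures, above 0 in each, with the same smallest exact p of 0.25. The row annotated with both Srebf1 and Mir6922, which was assigned to neither, gave 0.10, 0.09 and 0.35.

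LXR genes and their targets differed little between conditions. Nr1h3, which encodes LXR alpha, measured 8.77, 8.36 and 8.72 in normoxia and 8.69, 8.55 and 8.87 in hypoxia, a mean difference of 0.09 whose sign was not shared by culture 3. Abca1, the exporter of cholesterol to apolipoproteins, measured 12.21, 12.50 and 12.22 in normoxia and 12.33, 12.50 and 12.21 in hypoxia. Abcg1, the exporter to lipoprotein particles, measured 11.53, 11.57 and 11.56 in normoxia and 11.64, 11.55 and 11.65 in hypoxia. Mylip, the ligase that degrades the LDL receptor, measured 10.95, 10.84 and 10.94 in normoxia and 10.92, 10.90 and 10.94 in hypoxia. The mean differences of the 3 targets were 0.04, 0.06 and 0.01, and their 95% intervals lay between -0.14 and 0.22, so a change of 1 log2 unit in either direction is outside all of them. The median of the 3 was 0.04 as deposited, 0.14 after a further quantile normalization and 0.17 after cyclic loess of all 30176 genes. Of the transport genes, Stard4, a soluble sterol carrier, gave 0.10 and Npc1, the lysosomal sterol exporter, gave -0.01.

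**Figure D3:**
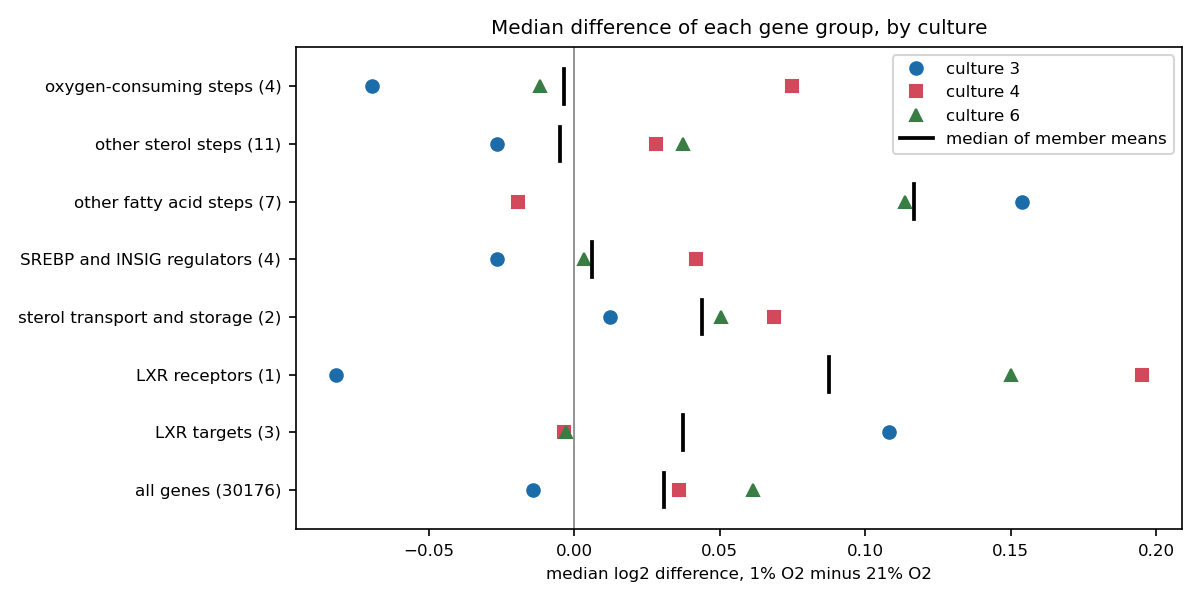
Median log2 difference of each gene group within each culture (symbols), beside the median of the 3-culture means (bars) and the same over all 30176 genes in the lowest line. The number of genes is in parentheses, and only the other fatty acid steps and the single LXR receptor lie more than 0.05 above the bar of all genes.

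Scd1 lies in a cluster of 4 desaturase genes on chromosome 19 of GRCm38, in the order Scd3 (44203288 to 44244016), Scd2 (44293676 to 44306864), Scd4 (44333326 to 44346743) and Scd1 (44394450 to 44407709). Scd3 and Scd4, from a list of further pathway genes, were measured by rows of their own. Scd4 measured 5.91, 5.90 and 5.93 in normoxia and 6.35, 6.40 and 6.63 in hypoxia, with no overlap. It rose by 0.55 ± 0.07 (SE, n = 3 cultures), or 1.46-fold, with a limma adjusted p of 0.0479 when blocked on culture and 0.0781 when not. Without culture 3, 4 or 6 the adjusted p of Scd4 was 0.188, 0.0408 or 0.0759. Scd3 measured 6.41, 6.37 and 6.37 in normoxia and 6.67, 6.79 and 6.90 in hypoxia, also without overlap, with a mean difference of 0.40 and an adjusted p of 0.0947. The row annotated with both Scd2 and Mir5114, a microRNA gene inside the span of Scd2, measured 10.28, 10.46 and 10.39 in normoxia and 11.48, 11.63 and 11.62 in hypoxia. The row as a whole rose by 1.20 ± 0.07 (SE, n = 3 cultures), with a limma adjusted p of 0.0494 over all 72688 rows. Without culture 3, 4 or 6 its difference was 1.20, 1.22 or 1.19 and its adjusted p 0.258, 0.180 or 0.222. The 4 genes are close copies of each other, and whether their probes share targets was not tested. The 21 other genes with a value within 500000 bases of the cluster, chosen after values were seen, had a median difference of 0.02. Of these 0 were called, where 0.421% of all genes were called higher and 0.116% lower. The highest was 1700039E22Rik, at 0.37, 0.30 and 0.48 in cultures 3, 4 and 6, and the lowest Gm24336, at -0.18, -0.31 and -0.77.

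Scd1 and Scd4 had nearly equal differences and unlike levels across cultures. In normoxia Scd1 was higher in culture 3 than in cultures 4 and 6, as the fibroblast and pericyte, endothelial, astrocyte and microglia marker means were. The 3 normoxia values of Scd4 lay within 0.04 of each other. They were dim, near the normoxia array medians of 5.84 to 5.90, and whether weak signal narrowed their spread was not tested. The Scd2 and Mir5114 row was lowest in culture 3 in both conditions. The part of fibroblasts, pericytes or other cell types in the Scd1 difference was not tested.

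**Figure D4:**
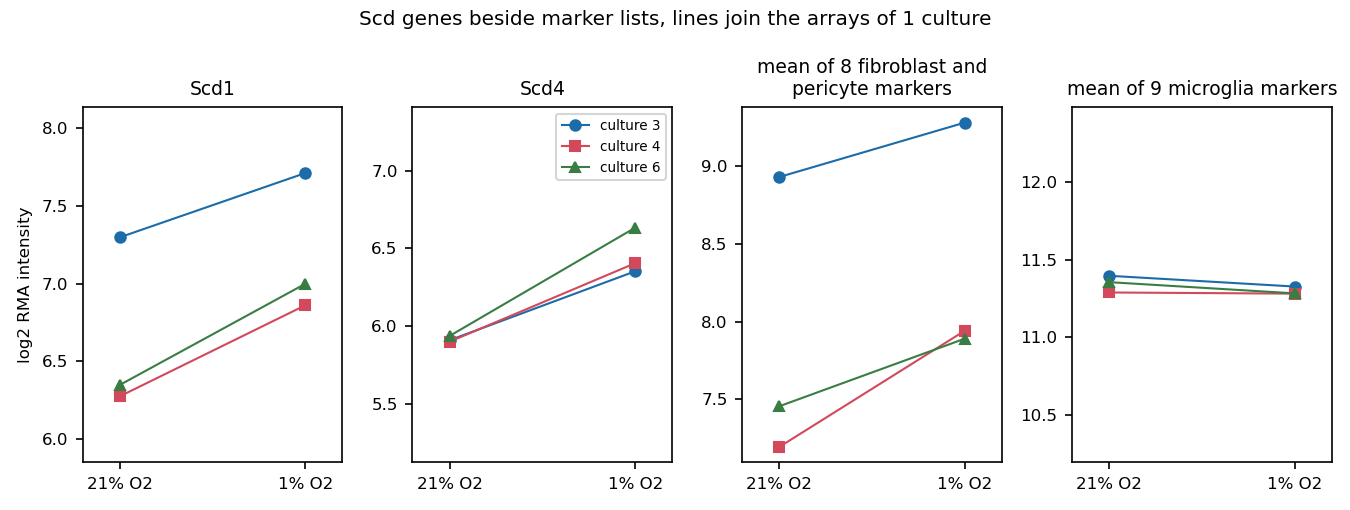
Log2 RMA intensity of Scd1 and Scd4 and mean log2 intensity of 8 fibroblast and pericyte markers and 9 microglia markers in each array, with a line for each culture and the same axis span in every panel. Culture 3 stands above the others for Scd1 and for the fibroblast and pericyte mean, which was 8.93 against 7.19 and 7.46 in normoxia. It does not do so for Scd4 in either condition.

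The order of the cultures was also compared. In normoxia 16 of the 32 (50.0%) were highest in culture 3, beside 29.1% of all genes. These included 4 of 4 oxygen-consuming steps and 7 of 11 other sterol steps, and 0 of 4 regulators. The same culture was highest in both conditions for 18 of the 32 genes (56.2%), beside 45.1% of all genes. The fibroblast and pericyte, endothelial, astrocyte and microglia marker means were also highest in culture 3, the last narrowly. Their part in this order was not tested.

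Of 52 genes on 6 further lists of the same pathways, 41 had a value. Scd4 was the only gene of these lists past the threshold with the block, where 0.421% of all genes were called higher and 0.116% lower. Without the block 0 passed it, beside 0.209% higher and 0.0166% lower over all genes. The median of the 41 was 0.01. Rnf145, a ubiquitin ligase that acts on SCAP and an LXR-responsive gene, had a difference of 0.30 with nearly equal values in the 3 cultures (0.29, 0.30 and 0.32), with a limma adjusted p of 0.108. Lpin1, a phosphatidate phosphatase and SREBP target, gave 0.20 without overlap, with a limma adjusted p of 0.202. Scd3, Scd4, Acss2, Slc25a1, Tmem97 and Rxrb also had every hypoxia array above every normoxia array, where 8.24% of all genes did. On the lower side, Nceh1, a hydrolase of cholesteryl esters, gave -0.22, -0.24 and -0.28, with an adjusted p of 0.151. Lipa, the lysosomal acid lipase, measured 12.93, 13.08 and 13.22 in normoxia and 12.86, 12.92 and 12.84 in hypoxia, without overlap, a mean difference of -0.21 with an adjusted p of 0.274. Erlin1, which takes part in INSIG and HMG-CoA reductase turnover, gave -0.17 with an adjusted p of 0.267. Outside the 41 genes, the row annotated with both Msmo1 and Sc4mol gave -0.15, -0.19 and -0.15 in cultures 3, 4 and 6. Its limma adjusted p over all 72688 rows was 0.471. The row of Yy2 and Mbtps2 gave a mean of -0.15, and that of Vps51 and Tm7sf2 0.04. The 7 other LXR targets and partners with a value ran from -0.12 to 0.15.

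Promoter windows of RefSeq (GRCm38.p6, from 250 bases before to 50 bases after a start) were at hand for 24 of the 32 genes and for Scd3 and Scd4, and Scd1 and Sqle were not among them. Both strands were searched for the core letters bound by hypoxia-inducible factor, ACGTG and GCGTG, and for the letters of a sterol regulatory element, TCACNCCAC. ACGTG, which also forms part of the E-box CACGTG, was found for 9 of the 24 genes and GCGTG for 16, where 19.6% and 32.4% of all 32851 windows held them. The 24 genes had 31 windows, of which 10 held ACGTG and 18 held GCGTG. TCACNCCAC was found for Hmgcs1 alone, where 1.24% of all windows held it. A match is a description of letters and not a binding site.

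The windows of the desaturase genes are shown since both had higher values in hypoxia, that of Hmgcs1 since it holds the sterol element, and, of the 3 windows of Insig2, the one with most matches, since the groups did not overlap for that gene. Scd3 lies at chr19:44203038-44203337 on the plus strand, Scd4 at chr19:44333076-44333375 on the plus strand, Hmgcs1 at chr13:119690101-119690400 on the plus strand and Insig2 at chr1:121327975-121328274 on the minus strand. Each is written in the direction of the gene, with matches on either strand in capitals.
Scd3: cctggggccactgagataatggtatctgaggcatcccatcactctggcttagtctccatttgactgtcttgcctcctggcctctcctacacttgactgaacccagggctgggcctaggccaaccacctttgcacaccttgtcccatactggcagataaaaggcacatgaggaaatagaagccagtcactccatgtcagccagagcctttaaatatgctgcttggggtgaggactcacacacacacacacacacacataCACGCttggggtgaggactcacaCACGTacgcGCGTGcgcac
Scd4: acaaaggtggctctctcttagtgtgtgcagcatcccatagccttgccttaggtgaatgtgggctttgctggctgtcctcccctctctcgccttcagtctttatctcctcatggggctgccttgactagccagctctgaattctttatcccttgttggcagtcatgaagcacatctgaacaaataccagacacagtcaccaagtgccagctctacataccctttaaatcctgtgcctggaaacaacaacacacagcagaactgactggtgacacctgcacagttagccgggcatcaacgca
Hmgcs1: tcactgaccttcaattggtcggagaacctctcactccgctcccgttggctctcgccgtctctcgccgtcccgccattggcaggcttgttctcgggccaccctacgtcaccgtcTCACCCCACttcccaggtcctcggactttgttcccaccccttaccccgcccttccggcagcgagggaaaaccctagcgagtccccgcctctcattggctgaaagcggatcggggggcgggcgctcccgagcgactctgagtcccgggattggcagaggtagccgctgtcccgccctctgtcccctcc
Insig2: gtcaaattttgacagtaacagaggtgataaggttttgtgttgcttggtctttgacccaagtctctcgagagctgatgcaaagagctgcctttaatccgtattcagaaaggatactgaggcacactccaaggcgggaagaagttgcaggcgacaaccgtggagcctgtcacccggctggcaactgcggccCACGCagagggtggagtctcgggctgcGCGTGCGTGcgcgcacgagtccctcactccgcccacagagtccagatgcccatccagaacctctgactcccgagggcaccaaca

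The Scd3 window held 1 ACGTG and 2 GCGTG, all after the start site and next to a run of CA repeats, while the Scd4 window, whose gene had the higher difference of the pair, held 0 matches. The Hmgcs1 window held the sterol element 137 bases before the start and 0 of the other letters, and the level of Hmgcs1 was lower in each hypoxia array than in the normoxia array of its culture. The Insig2 window held 3 matches to GCGTG, at 61, 34 and 30 bases before the start, of which the first lies on the other strand and the last pair shares 1 base. The other windows of Insig2 held 0 and 1 matches. The window of Insig1, whose difference was below 0, held 4 matches to ACGTG and 2 to GCGTG. The ACGTG matches at 101 and 100 bases before the start are opposite strands of 1 CACGTG. Whether matches go with the differences was not tested.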

How the data were processed

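The array table of 6 arrays was used as deposited. The authors had normalized it by RMA and gave log2 intensities, and their processing notes list Affymetrix Expression Console, limma, RMA and mm10 with no version. Probe filters: not given in the sources used here. Of 72688 rows, 30638 carried 1 symbol in the array's annotation table, 2176 several and 39874 none listed; 354 genes had more than 1 row, and the brightest was kept. The genes, lists and tests were chosen with earlier results of these data known. All 32 genes with a value are named, as are other pathway genes past the threshold. Scd3, Rnf145, Lpin1, Nceh1, Lipa and Erlin1 were added after their values were seen. So were Acss2, Slc25a1, Tmem97 and Rxrb, and the rows that Msmo1, Mbtps2 and Tm7sf2 share with another symbol.

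Hypoxia minus normoxia was fitted with lmFit and eBayes (limma 3.58.1, R 4.3.3), blocked on culture, with Benjamini-Hochberg adjustment over 30176 genes. The code was first tested on simulated data. The labels give both arrays of a culture the same number. Deviations from the group mean correlated at 0.57, 0.40 and 0.22 between the 2 arrays of cultures 3, 4 and 6, while arrays of different cultures gave -0.50 to 0.14. These deviations cancel within a group, so part of this contrast is built in. P-values and standard errors rest on 3 cultures of pooled pups, and this number limits the precision. The eBayes step also moves the variance of each gene toward that of all genes, so neither measures the spread of that gene alone. The 3 differences of Rnf145 had a standard deviation of 0.015, and its standard error in the fit was 0.061. Array medians were 5.84 to 5.92, correlations within a group 0.987 to 0.993, and 0 arrays were identical. Signal over background was not analysed here. Promoters were searched with Python 3.11.15 and figures drawn with matplotlib 3.10.9.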

Additional observations from a re-analysis of the deposited data

Results flagged for a closer look

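The row annotated with both Scd2 and Mir5114 stood outside the 32 genes and gave the highest difference of the Scd cluster. It was noted because a signal appeared in a row that no comparison of member genes used. It measured 10.28, 10.46 and 10.39 in normoxia and 11.48, 11.63 and 11.62 in hypoxia for cultures 3, 4 and 6. The difference was 1.20, 1.17 and 1.23 within the cultures, a mean of 1.20 (SE 0.07) or 2.30-fold with a 95% interval of 2.03 to 2.61. The adjusted p from limma over all 72688 rows was 0.0494 when blocked on culture and 0.00802 when not, and it ran from 0.180 to 0.258 with 1 culture left out, an alternative chosen after seeing the data, at differences of 1.19 to 1.22. Mir5114 (chromosome 19, 44303171 to 44303231) lies inside Scd2 (44293676 to 44306864), and these values do not tell which transcript the signal came from.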

How the results depend on the processing

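The call of Scd1 depended on the setting. The count of genes called higher was 1 of 32 as reported, and 0 without the replicate block. It was also 0 after quantile normalization, cyclic loess or median centring of all 30176 genes. The mean of all rows of a symbol and adjustment over every row gave 0 too. The count was 0 as well when culture 3, 4 or 6 was left out. It stayed at 1 with dim genes left out and with an intensity trend. The count of genes called lower was 0 throughout. In the paired fit Scd1 had a standard error of 0.07, and with no replicate block 0.31, at the same difference of 0.55. The dimmer Scd1 row, an alternative chosen after seeing the data, gave 0.17. Scd4 kept its call in 3 of 10 alternatives, and it was too dim for the filter on dim genes. Median centring shifted every gene by -0.042, a constant offset. It moved the median of the other sterol steps to -0.047, that of the SREBP and INSIG regulators to -0.036 and that of sterol transport to 0.0017. Without dim genes the median of sterol transport, then 1 gene, was -0.015. The regulators gave 0.053 after quantile normalization and 0.055 after cyclic loess, and the LXR targets gave 0.14 and 0.17 in the same order. Over all genes the blocked fit called 127 higher and 35 lower, and the fit with no replicate block called 63 and 5. Leaving out a culture gave 17 to 135 higher and 1 to 94 lower. Quantile normalization gave 87 and 10, cyclic loess 88 and 11, median centring 53 and 6, the filter on dim genes 193 and 101 and the intensity trend 214 and 117.

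The sign changed in some alternative for 11 of the 32 genes, all within 0.09 of 0 as reported. With 1 culture left out the ranges were -0.025 to 0.19 for Mvd, -0.085 to 0.018 for Fdft1, -0.11 to 0.034 for Nsdhl, -0.035 to 0.015 for Dhcr7, -0.023 to 0.12 for Acaca, -0.014 to 0.024 for Srebf2, -0.0095 to 0.022 for Scap, -0.074 to 0.020 for Npc1, -0.0044 to 0.058 for Abca1 and -0.017 to 0.033 for Mylip. Quantile normalization and cyclic loess gave 0.011 and 0.00091 for Dhcr7, 0.021 and 0.033 for Elovl5 and 0.067 and 0.074 for Npc1. Median centring gave -0.039 for Srebf2, -0.033 for Scap, -0.0048 for Abca1 and -0.030 for Mylip. The other causes were not tested.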
